A study of Caenorhabditis elegans with 16 samples.

Results

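The genes of trehalose metabolism were followed here through 16 RNA-seq libraries from whole bodies of Caenorhabditis elegans. They are the 8 genes named tps-1, tps-2, gob-1 and tre-1 to tre-5, taken by name from the 42048 genes and other loci listed in the tables, and each had a value in every library. The libraries form 4 groups of 4, all from worms kept at 20 °C and collected on day 1 of adulthood after feeding on HT115 bacteria that make double-stranded RNA (RNAi by feeding). Of these groups, 3 carry a glp-1 mutation, for which the labels give no allele, in the TU3401 background, a strain labelled SHU47. They were fed mml-1 RNAi, mxl-2 RNAi or the RNAi that the sample titles call Luc. The last group is TU3401 without the glp-1 mutation, fed Luc. All 4 groups therefore share the TU3401 background, known in the field as one in which SID-1, the importer of double-stranded RNA, is supplied to neurons alone, which limits RNAi by feeding largely to those cells. The values below are of whole bodies, and a change confined to neurons could go unseen in them. The labels do not say whether replicates came from separate cultures, so p-values measure the spread between these libraries, which may be technical.

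Trehalose is a sugar of paired glucose units that worms use as a store and as a protectant against drying, heat and osmotic stress. It is made in a pair of steps. Trehalose-6-phosphate synthase, encoded in the worm by tps-1 and tps-2, joins UDP-glucose to glucose-6-phosphate, and trehalose-6-phosphate phosphatase, encoded by gob-1, removes the phosphate. Loss of gob-1 obstructs the gut of larvae, which gave the gene its name. Trehalases, encoded by tre-1 to tre-5, split trehalose back into glucose. GLP-1 is the Notch receptor that keeps germline stem cells dividing, and its loss leaves worms without a germline, with more stored fat and a longer life. MML-1 pairs with MXL-2 to bind DNA, and their mammalian relatives, the Mondo and Mlx proteins, respond to glucose.

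The members lie apart in the genome. By the Ensembl release 115 annotation of WBcel235, tps-1 (WBGene00006602) lies on the minus strand of chromosome X from 17467121 to 17474534, and tps-2 (WBGene00006603) on the plus strand of chromosome II from 14600902 to 14610554. The phosphatase gob-1 (WBGene00001649) is on the plus strand of X from 15493602 to 15497504. The trehalase gene tre-1 (WBGene00006607) lies on the plus strand of I from 6554729 to 6558665, tre-2 (WBGene00006608) on the minus strand of IV from 6876731 to 6883442, and tre-3 (WBGene00006609) on the minus strand of V from 11709769 to 11715903. On the plus strand of X, tre-4 (WBGene00006610) runs from 13472155 to 13475926, and tre-5 (WBGene00006611) runs on the minus strand of II from 52997 to 55304. All 2308 bases of tre-5 lie inside sptl-1, a gene of the opposite strand that encodes a subunit of serine palmitoyltransferase, though no exon of sptl-1 covers coding bases of tre-5. No label states whether strand was kept in these libraries, so reads of this pair cannot be told apart where they overlap. At tps-2, exons of arl-3 on the same strand cover 24 of its 3687 annotated coding bases, and F19H8.2 overlaps it on the opposite strand. The levels of arl-3 were 5.62 ± 2.41, 4.73 ± 2.37, 9.17 ± 3.96 and 3.13 ± 0.514 RPKM in glp-1 mml-1 RNAi, glp-1 mxl-2 RNAi, glp-1 Luc and TU3401 worms (SD, n = 4 each), all well under those of tps-2. The level of F19H8.2 was 16.9 ± 2.19 RPKM in glp-1 Luc and 3.78 ± 0.388 RPKM in TU3401 worms. On the opposite strand of tre-4, efn-3 overlaps it by 51 bases, at 12.8 ± 2.18 and 4.09 ± 0.561 RPKM (SD, n = 4 each). No exon of F19H8.2 or efn-3 covers coding bases of these members. Noncoding RNA genes overlap tps-2, tre-2 and tre-3, and no gene overlaps tps-1, gob-1 or tre-1.

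Levels are RPKM (read counts set against gene length and library size), so they can be compared between genes. The libraries held 18818680 to 27228111 reads, worked out from the deposited values, and the members had between 53 reads (tre-5) and 13001 reads (tps-2) in a library. Neither knockdown target was lower on average in its own group. Reads of mml-1 stood at 23.8, 91.5, 28.9 and 22.9 RPKM in replicates 1 to 4 labelled mml-1 RNAi, against 35.2, 23.95, 11.9 and 11.24 RPKM in glp-1 Luc worms. For mxl-2 the libraries labelled mxl-2 RNAi showed 29.3, 90.7, 733.1 and 47.4 RPKM, against 24.5, 30.3, 20.99 and 22.9 RPKM in glp-1 Luc worms. Replicate 3 labelled mml-1 RNAi held 308.3 RPKM of mxl-2, which goes against its label. Replicate 1 labelled mxl-2 RNAi, at 29.3 RPKM of mxl-2, lay within the range of the glp-1 Luc libraries. The knockdown groups are therefore named by their labels. Values without replicate 3 labelled mml-1 RNAi are given beside the result it touches. Of 16 germline and oocyte marker genes, 16 were lower in glp-1 Luc than in TU3401 worms, and their summed level was 41.8 to 52.2 RPKM against 7426 to 7724 RPKM, with pgl-3 and htp-3 at 0 in glp-1 Luc worms.

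**Figure D1:**
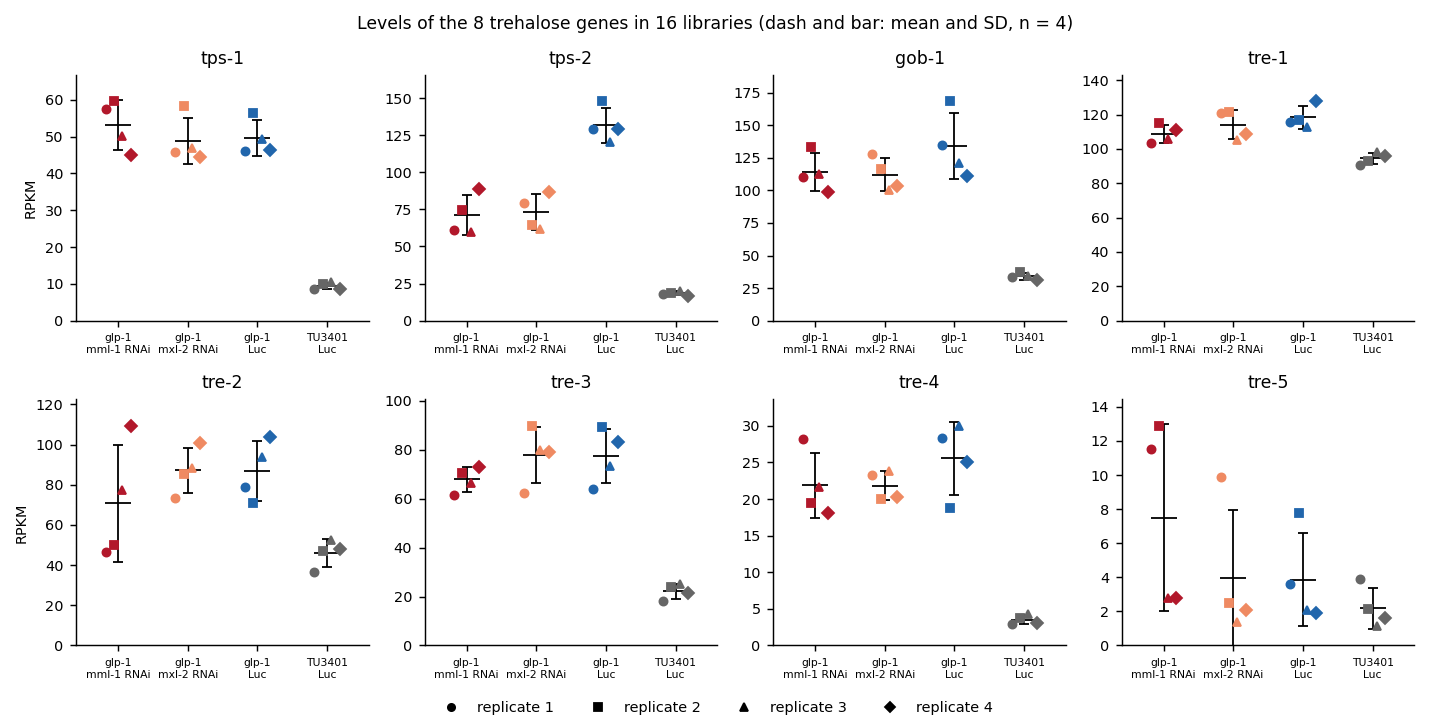
RPKM of each of the 8 genes (vertical axes, starting at 0) in every library, by group, with the mean and SD of 4 libraries as dash and bar and the replicate number as symbol (the bar of tre-5 in glp-1 mxl-2 RNAi worms would reach below 0). In 7 panels the glp-1 Luc libraries lie above all TU3401 libraries, and tps-2 lies lower in both knockdown groups, at 59.8 to 88.8 RPKM, than in glp-1 Luc worms, at 120.4 to 148.1 RPKM.

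The first comparison asks how trehalose genes differ in worms without a germline. The 3 genes of synthesis were 3.93 to 7.13 times as high in glp-1 Luc as in TU3401 worms, while the trehalases ranged from 1.25 times (tre-1) to 7.26 times (tre-4). Of the 8 genes, 7 were called higher by limma at a Benjamini-Hochberg adjusted p under 0.05 and 0 lower. Over all 13563 genes tested, 41.5% were called higher and 46.1% lower, so the 2 genotypes differed in most of the transcriptome. The median log2 fold change was 1.84 over the 8 members and -0.06 over all genes tested.

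The synthase gene tps-2 had 128.95, 148.1, 120.4 and 129.4 RPKM in glp-1 Luc replicates 1 to 4, against 18.2, 18.7, 20.3 and 16.7 RPKM in TU3401 worms. Its log2 fold change was 2.77 (SE 0.09, limma adjusted p = 2.88e-09), the largest among the members on this scale. The other synthase gene, tps-1, had 46.2, 56.5, 49.4 and 46.4 RPKM in glp-1 Luc worms, against 8.66, 9.92, 10.51 and 8.65 RPKM in TU3401 worms, with a log2 fold change of 2.28 (SE 0.09, adjusted p = 1.88e-08 by limma). In neither gene did a library of one genotype reach the range of the other. The phosphatase gene gob-1 averaged 133.8 ± 25.3 RPKM in glp-1 Luc worms and 34.04 ± 2.59 RPKM in TU3401 worms (SD, n = 4 each; log2 fold change 1.93 with SE 0.13, adjusted p = 5.22e-07 by limma). Its highest glp-1 Luc library was replicate 2, at 168.7 RPKM, and its lowest was replicate 4, at 110.8 RPKM, still far above the highest TU3401 library at 37.2 RPKM.

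Among the trehalases, tre-4 and tre-3 showed larger folds than tre-2 and tre-1. The gene tre-4 had 28.4, 18.8, 30.03 and 25.04 RPKM in glp-1 Luc worms, against 2.95, 3.78, 4.32 and 3.03 RPKM in TU3401 worms, with a log2 fold change of 2.55 (SE 0.16, adjusted p = 3.69e-07 by limma). For tre-3 the values were 64.2, 89.2, 73.2 and 83.4 RPKM in glp-1 Luc worms, against 18.4, 23.9, 25.1 and 21.3 RPKM in TU3401 worms, with a log2 fold change of 1.76 (SE 0.13, adjusted p = 1.06e-06 by limma). These sets of values lie far apart. The gene tre-2 averaged 86.9 ± 14.8 RPKM in glp-1 Luc worms and 46.04 ± 6.77 RPKM in TU3401 worms (SD, n = 4 each; log2 fold change 0.90 with SE 0.15, adjusted p = 0.000311 by limma). The most abundant trehalase gene of TU3401 worms, tre-1, moved least among the 7 that passed. It had 115.7, 116.8, 113.01 and 127.9 RPKM in glp-1 Luc worms, against 90.9, 93.2, 98.5 and 95.8 RPKM in TU3401 worms (log2 fold change 0.32, SE 0.06, limma adjusted p = 0.00126), so its groups were narrow and did not overlap. The least abundant trehalase gene, tre-5, did not pass. It had 3.59, 7.78, 2.09 and 1.92 RPKM in glp-1 Luc worms, against 3.88, 2.12, 1.16 and 1.59 RPKM in TU3401 worms, and these ranges overlap (log2 fold change 0.52, 95% interval -0.35 to 1.40, limma adjusted p = 0.223; 0.104 with the replicate number as a block). With that block its adjusted p was 0.0485, 0.337, 0.197 and 0.125 when the libraries numbered 1, 2, 3 and 4 were left out in turn. The first of these fits called 5747 of all genes higher and 6193 lower. Without glp-1 Luc replicate 2 alone its log2 fold change was 0.19, the lowest over the left-out libraries, and without TU3401 replicate 1 it was 0.75, the highest. The gene sptl-1 that surrounds tre-5 averaged 160.5 ± 7.16 RPKM in glp-1 Luc worms and 100.4 ± 14.1 RPKM in TU3401 worms (SD, n = 4 each).

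The groups did not overlap for 7 of the 8 members, all higher in glp-1 Luc worms, against 38.4% of all genes tested. RPKM are shares of a library, and in bulk samples fewer cells of a type and less RNA per cell cannot be told apart. Markers of other tissues moved beside the germline markers. Of 6 muscle markers 5 were called higher and 1 lower, and they summed to 1399 to 1541 RPKM in glp-1 Luc worms, against 389.2 to 445.5 RPKM in TU3401 worms. Of 7 intestine markers 5 were called higher, and 6 with the replicate block (act-5, adjusted p = 0.0513 without the block and 0.0373 with it), with sums of 22056 to 25331 RPKM in glp-1 Luc worms, against 10681 to 13910 RPKM in TU3401 worms, although the yolk protein genes vit-2 and vit-6 among them turned sign under quantile scaling. Of 8 neuron markers 6 were called higher and 1, unc-119, lower, which also turned sign, with sums of 811.03 to 1029 RPKM in glp-1 Luc worms, against 622.5 to 679.3 RPKM in TU3401 worms. For the other lists, hypodermis markers summed to 833.6 to 1148 RPKM in glp-1 Luc and 286.7 to 475.1 RPKM in TU3401 worms (2 higher and 1 lower of 4 tested), and somatic gonad markers to 138.5 to 154.2 and 119.7 to 129.3 RPKM (4 higher and 2 lower of 6). Early embryo markers summed to 6.95 to 15.2 RPKM in glp-1 Luc and 421.8 to 454.7 RPKM in TU3401 worms (7 lower of 7 tested, with pes-10, end-1 and end-3 at 0 in glp-1 Luc worms), and sperm markers to 1.103 to 1.93 and 1.49 to 4.94 RPKM (0 tested, fog-3 at 0 in glp-1 Luc worms). The part of these shifts in the trehalose genes was not tested. With quantile scaling the median of all genes became 0.42 on the log2 scale. Relative to the median, the log2 fold changes of tps-2 and tps-1 were then 2.83 and 2.44, and that of tre-1 was 0.25, against 2.82, 2.33 and 0.37 without it. Each of the 7 genes was called higher under all 20 alternatives tried.

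The chromosomes of the members differ in how their genes behaved. Of 1810 genes tested on X, where tps-1, gob-1 and tre-4 lie, 63.9% were called higher in glp-1 Luc than in TU3401 worms and 21.4% lower, with a median log2 fold change of 0.78. Off X, 38.4% of 10213 genes were called higher and 49.3% lower, with a median of -0.30. As background, genes on X are known to be kept low in the worm germline; the part of this in the values of the members was not tested. The 3 members on X had log2 fold changes of 1.93 to 2.55. On chromosome II, where 37% of genes were called higher, tps-2 had 2.77 and tre-5, which was not called, 0.52. The remaining members off X lay below those on X, at 1.76 for tre-3 (V), 0.90 for tre-2 (IV) and 0.32 for tre-1 (I). Chromosomes could be assigned to 12023 of the 13563 genes.

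**Figure D2:**
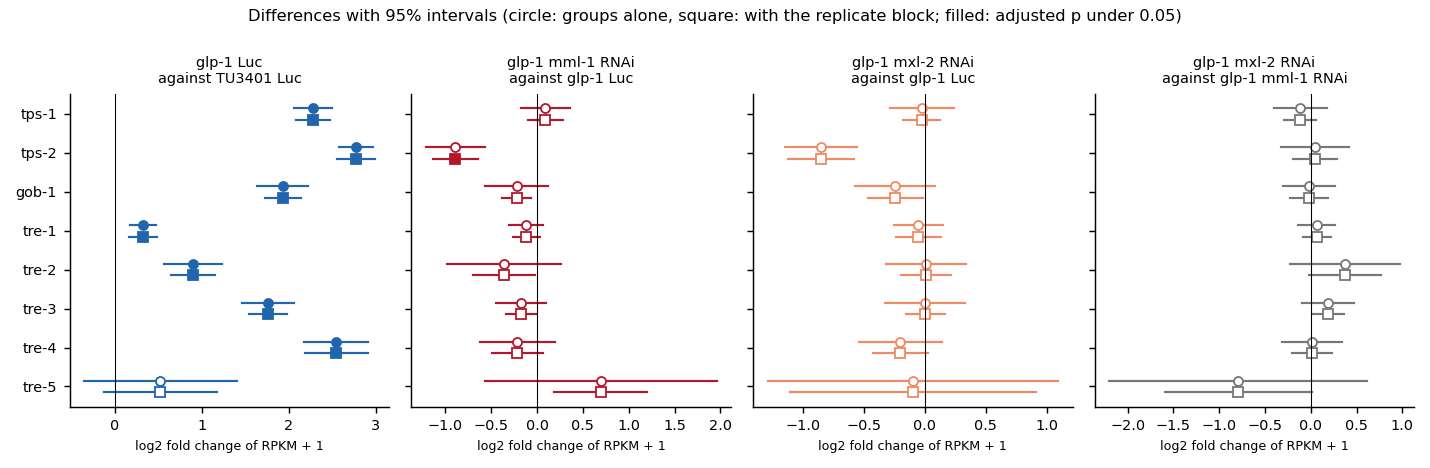
Log2 fold changes of RPKM + 1 (horizontal axes) with 95% intervals for each gene in the 4 comparisons, with circles for the fit on groups alone and squares for the fit with the replicate number as a block, filled where the adjusted p over all genes was under 0.05. In glp-1 Luc against TU3401 worms 7 genes are filled, and in the knockdown comparisons the 1 filled symbol is tps-2 under mml-1 RNAi with the block.

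The order of the levels differed between glp-1 Luc and TU3401 worms. In TU3401 worms tre-1 was highest at 94.6 ± 3.27 RPKM, followed by tre-2 at 46.04 ± 6.77 and gob-1 at 34.04 ± 2.59 RPKM (SD, n = 4 each), with no overlap between tre-1 and tre-2. In glp-1 Luc worms gob-1, tps-2 and tre-1 led at 133.8 ± 25.3, 131.7 ± 11.7 and 118.4 ± 6.57 RPKM, and these neighbours overlapped. The sum of tps-1 and tps-2 was 181.4 ± 15.7 RPKM in glp-1 Luc worms and 27.9 ± 2.36 RPKM in TU3401 worms, while the sum of the 5 trehalases was 312.1 ± 21.96 RPKM and 168.5 ± 11.9 RPKM. Trehalase RPKM per synthase RPKM was therefore 1.73 ± 0.203 in glp-1 Luc worms, with a range of 1.48 to 1.95, and 6.06 ± 0.453 in TU3401 worms, with a range of 5.68 to 6.71. These sums are of RNA, and enzyme activity or the sugar itself was not measured. The make-up of the trehalase RNA also differed: tre-1 held 37.97 ± 1.55% of it in glp-1 Luc worms and 56.3 ± 2.37% in TU3401 worms, tre-3 held 24.8 ± 3.17% and 13.1 ± 1.00%, and tre-4 held 8.22 ± 1.76% and 2.08 ± 0.270% (SD, n = 4 each). The share of tre-2 was 27.7 ± 3.24% in glp-1 Luc worms and 27.2 ± 2.24% in TU3401 worms, well within the spread.

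**Figure D3:**
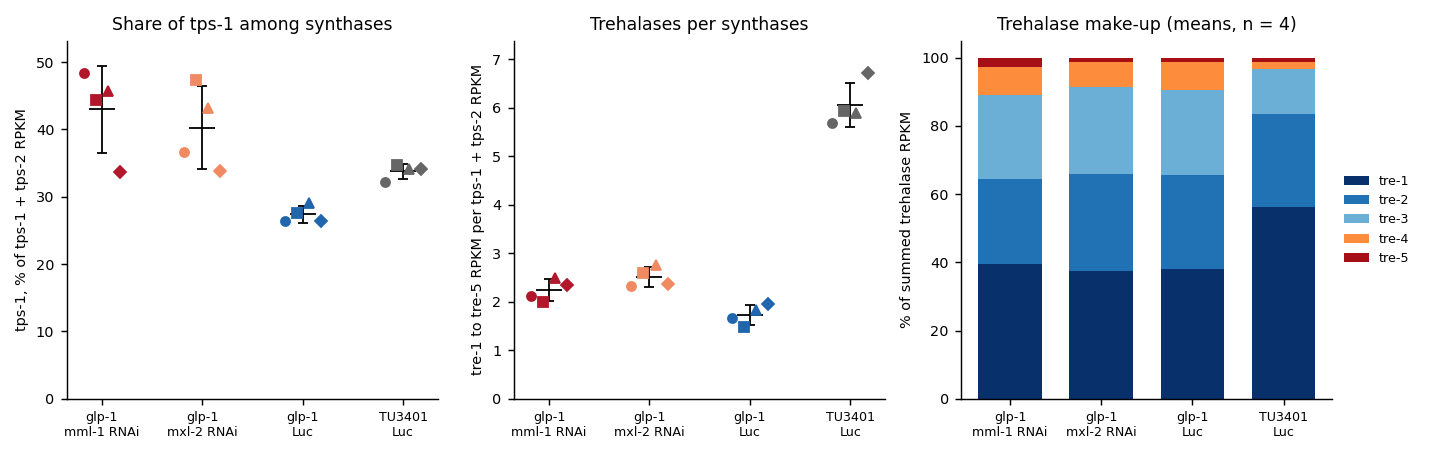
Left, the percentage of tps-1 in the summed RPKM of tps-1 and tps-2, and middle, the summed RPKM of the 5 trehalases per summed RPKM of the synthases, for each library with mean and SD of 4; right, the mean percentage of each trehalase in the summed trehalase RPKM. The tps-1 share is lowest in glp-1 Luc worms, at 26.4 to 29.1%, and the trehalase ratio is highest in TU3401 worms, at 5.68 to 6.71.

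The other comparisons ask what mml-1 or mxl-2 RNAi changed in germline-less worms. In both, tps-2 was the 1 member of 8 whose groups did not overlap. Over all genes tested, the groups did not overlap for 2.61% (lower) and 2.14% (higher) under mml-1 RNAi. Under mxl-2 RNAi these shares were 1.97% and 2.15%. The median log2 fold change of the 8 members was -0.20 under mml-1 RNAi, beside -0.0049 over all genes tested, and -0.08 under mxl-2 RNAi, beside 0.00037. Under mml-1 RNAi tps-2 had 61.4, 74.8, 59.8 and 88.8 RPKM in replicates 1 to 4, and under mxl-2 RNAi 79.1, 64.6, 61.7 and 87.01 RPKM, against 128.95, 148.1, 120.4 and 129.4 RPKM in glp-1 Luc worms. The highest knockdown library lay below the lowest glp-1 Luc library. Set against the glp-1 Luc library of the same number, tps-2 stood at 47.6, 50.5, 49.7 and 68.7% under mml-1 RNAi and at 61.4, 43.6, 51.2 and 67.2% under mxl-2 RNAi. Both knockdown groups remained above the 16.7 to 20.3 RPKM of TU3401 worms. The comparisons share the glp-1 Luc libraries, so the pair of results is not independent.

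Whether tps-2 passed the threshold depended on the fit. Under mml-1 RNAi its log2 fold change was -0.89 (SE 0.14, 95% interval -1.21 to -0.57, unadjusted p = 0.000176, limma adjusted p = 0.14), rank 15 by p among 12591 genes, and it was not called. In that comparison limma called 0% of all genes higher and 0.0159% lower, and 985 genes had an unadjusted p under 0.05. The level of tps-2 was lower in 4 of 4 pairs. Such counts of pairs, here and below, were not worked out over all genes and are descriptions. With the replicate number as a block, tps-2 was called lower at a limma adjusted p of 0.0397, where 0.365% of all genes were called lower. In the authors' deposited table its false discovery rate was 0.00627, and 0.294% of the genes tested here were lower there at a rate under 0.05. Replicate 4, the highest knockdown library, weighed on the result: without it the log2 fold change was -1.004 and limma called tps-2 (adjusted p = 0.0285). Calls rose over all genes too, to 26 higher and 26 lower of 12591 in that fit, against 0 and 2 with all libraries. Without replicate 3, the library with the high mxl-2 reads, the log2 fold change was -0.82 (limma adjusted p = 0.422). With the block the adjusted p was 0.132, 0.16, 0.192 and 0.0166 when the libraries numbered 1, 2, 3 and 4 were left out in turn. The last of these fits called 112 of all genes higher and 130 lower. Groups did not overlap, with knockdown libraries lower, for 2.61% of all genes.

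Under mxl-2 RNAi the log2 fold change of tps-2 was -0.85 (SE 0.13, 95% interval -1.15 to -0.56, unadjusted p = 0.000119, limma adjusted p = 0.0832), rank 18 by p among 12581 genes, and it was not called. Limma called 0.0159% of all genes higher and 0.0874% lower, and 823 had an unadjusted p under 0.05. With the replicate block the limma adjusted p was 0.0548, again in 4 of 4 pairs, and 0.127% of all genes were called lower. In the authors' deposited table the false discovery rate of tps-2 was 0.0107, beside 0.302% of genes lower at a rate under 0.05. Without replicate 1, whose mxl-2 reads lay within the glp-1 Luc range, the log2 fold change was -0.89 (limma adjusted p = 0.117). With the block limma gave adjusted p-values of 0.0804, 0.0991, 0.316 and 0.0489 when the libraries numbered 1, 2, 3 and 4 were left out in turn. The last of these fits called 42 of all genes higher and 32 lower. Groups did not overlap, with knockdown libraries lower, for 1.97% of all genes. A fit of all 16 libraries together gave tps-2 a limma adjusted p of 0.00844 under mml-1 RNAi and 0.0134 under mxl-2 RNAi.

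The levels of the other synthase gene overlapped between these groups. Levels of tps-1 were 57.4, 59.7, 50.2 and 45.0 RPKM under mml-1 RNAi and 45.9, 58.2, 46.9 and 44.3 RPKM under mxl-2 RNAi, against 46.2, 56.5, 49.4 and 46.4 RPKM in glp-1 Luc worms. The log2 fold change of tps-1 was 0.09 under mml-1 RNAi (95% interval -0.17 to 0.36, limma adjusted p = 0.953) and -0.03 under mxl-2 RNAi (95% interval -0.29 to 0.24, limma adjusted p = 0.983), and the second changed sign under quantile scaling. In these data tps-1 therefore made up 43.01 ± 6.47% of synthase RNA under mml-1 RNAi and 40.3 ± 6.17% under mxl-2 RNAi, against 27.4 ± 1.28% in glp-1 Luc worms (SD, n = 4 each). The knockdown libraries lay between 33.6 and 48.4%, all above the glp-1 Luc libraries. The sum of both synthases was 124.3 ± 11.9 RPKM under mml-1 RNAi and 121.96 ± 9.598 RPKM under mxl-2 RNAi, against 181.4 ± 15.7 RPKM in glp-1 Luc worms. Trehalase RPKM per synthase RPKM was 2.24 ± 0.223 and 2.51 ± 0.201 in the knockdown groups, against 1.73 ± 0.203 in glp-1 Luc worms, with 1.99 as the lowest knockdown value and 1.95 as the highest glp-1 Luc value. Without replicate 3 labelled mml-1 RNAi, the tps-1 share of that group was 42.1 ± 7.62%, its synthase sum 129.03 ± 8.88 RPKM and its trehalase ratio 2.15 ± 0.180 (SD, n = 3).

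The phosphatase gene gob-1 was lower than its same-numbered glp-1 Luc library in 4 of 4 pairs in both knockdowns, and did not pass. It averaged 113.8 ± 14.6 RPKM under mml-1 RNAi and 112.01 ± 12.61 RPKM under mxl-2 RNAi, against 133.8 ± 25.3 RPKM in glp-1 Luc worms (SD, n = 4 each). Limma adjusted p-values were 0.863 and 0.883, and 0.159 and 0.294 with the replicate block. With that block the intervals of the log2 fold change ran from -0.38 to -0.06 under mml-1 RNAi and from -0.47 to -0.02 under mxl-2 RNAi. In those block fits 2354 of 12591 and 1963 of 12581 genes tested had an unadjusted limma p under 0.05. The trehalases tre-1, tre-3 and tre-4 overlapped with glp-1 Luc worms in both knockdowns, with log2 fold changes against glp-1 Luc between -0.22 and 0.003 and limma adjusted p-values between 0.863 and 0.998. Under mml-1 RNAi tre-1 and tre-3 were lower in 4 of 4 pairs, a description without its share over all genes. With the block the interval of tre-3 ran from -0.34 to -0.02 and its limma adjusted p was 0.229, against 0.354 for tre-1. Without the block the interval of the tre-1 difference ran from -0.30 to 0.06 under mml-1 RNAi and from -0.25 to 0.15 under mxl-2 RNAi, and both exclude a difference as large as the one fitted for tps-2.

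The trehalase genes tre-2 and tre-5 varied widely between replicates of a group. The gene tre-2 had 46.6, 50.01, 77.1 and 109.4 RPKM in replicates 1 to 4 under mml-1 RNAi and 73.4, 85.5, 88.5 and 100.99 RPKM under mxl-2 RNAi, against 78.6, 71.1, 93.8 and 103.99 RPKM in glp-1 Luc worms. In all 3 groups replicate 4 was the highest. Under mml-1 RNAi tre-2 was lower in 3 of 4 pairs, with a log2 fold change of -0.36 (95% interval -0.99 to 0.26, limma adjusted p = 0.897). With the replicate block that interval was -0.70 to -0.03 (unadjusted p = 0.0381, limma adjusted p = 0.236), in a fit where 2354 of 12591 genes had an unadjusted limma p under 0.05. Under mxl-2 RNAi its log2 fold change was 0.0099 (95% interval -0.32 to 0.34, limma adjusted p = 0.994). The gene tre-5 had 11.5, 12.9, 2.79 and 2.77 RPKM under mml-1 RNAi and 9.87, 2.49, 1.36 and 2.09 RPKM under mxl-2 RNAi, against 3.59, 7.78, 2.09 and 1.92 RPKM in glp-1 Luc worms. Replicates 3 and 4 lay between 1.36 and 2.79 RPKM in all 3 of these groups, and every higher value was in replicate 1 or 2. Replicate 2 under mxl-2 RNAi, at 2.49 RPKM, lay within that range. Under mml-1 RNAi tre-5 was higher in 4 of 4 pairs, with a log2 fold change of 0.69 (95% interval -0.57 to 1.96, limma adjusted p = 0.908). With the replicate block the interval was 0.18 to 1.203 (unadjusted p = 0.0163, limma adjusted p = 0.165). Under mxl-2 RNAi the log2 fold change of tre-5 was -0.10 (95% interval -1.29 to 1.09, limma adjusted p = 0.986). Over the 12 germline-less libraries, deviations from the group means of tre-2 and tre-5 had a Pearson r of -0.83, and those of gob-1 and tre-5 one of 0.81. These were picked as the largest in absolute value among all pairs of members. Other pairs ranged down to values near 0, such as -0.014 for tre-4 and tre-5. Without replicate 3 labelled mml-1 RNAi, the log2 fold changes under mml-1 RNAi were 0.99 for tre-5, -0.43 for tre-2 and -0.22 for gob-1, and those of tps-1, tre-1, tre-3 and tre-4 were 0.11, -0.11, -0.17 and -0.22. The correlations are descriptions of libraries that share replicate numbers across groups. The level of sptl-1 was 158.1 ± 13.5, 162.4 ± 14.1 and 160.5 ± 7.16 RPKM in glp-1 mml-1 RNAi, glp-1 mxl-2 RNAi and glp-1 Luc worms (SD, n = 4 each), a spread far smaller, relative to the mean, than that of tre-5.

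**Figure D4:**
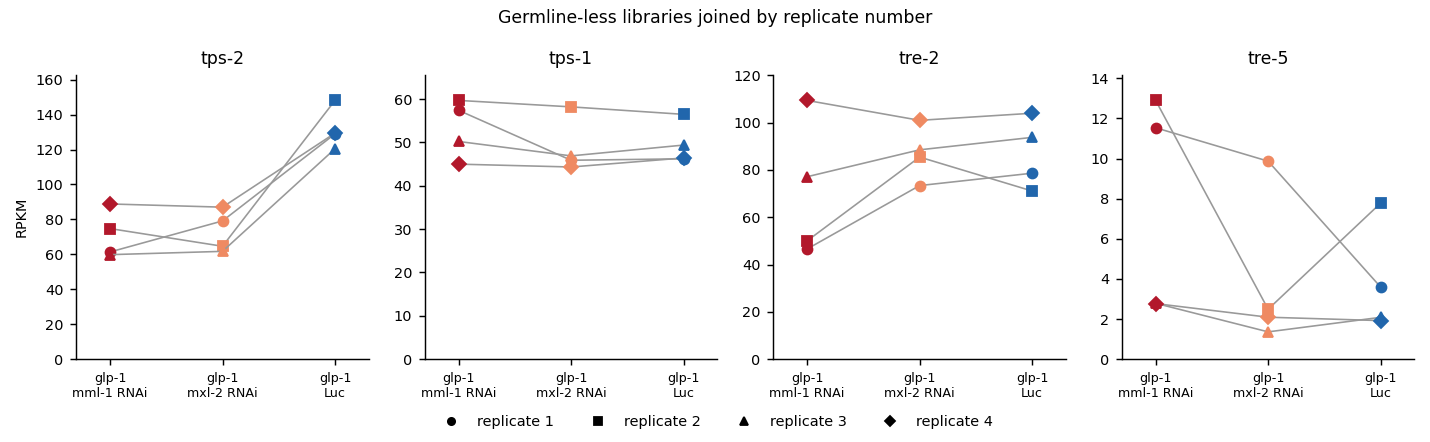
RPKM (vertical axes, starting at 0) of tps-2, tps-1, tre-2 and tre-5 in the 12 germline-less libraries, with lines joining libraries of the same replicate number. For tps-2 all 4 lines climb toward glp-1 Luc from both knockdowns, tps-1 stays between 44.3 and 59.7 RPKM, and for tre-2 and tre-5 replicates of 1 group lie farther apart than the group means.

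The knockdowns were also set against each other. Limma called 0% of 12540 genes higher and 0% lower in mxl-2 RNAi against mml-1 RNAi, with 111 genes at an unadjusted p under 0.05, and 0 of the 8 members passed with or without the block. The log2 fold change of tps-2 was 0.04 (95% interval -0.33 to 0.41, limma adjusted p = 1), and -0.03 without the mml-1 RNAi library that held the high mxl-2 reads. The widest intervals were those of tre-2, at 0.37 (-0.23 to 0.97), and tre-5, at -0.79 (-2.20 to 0.62). Under mxl-2 RNAi tre-5 and tps-1 were lower and tre-3 was higher than under mml-1 RNAi in 4 of 4 pairs. With the block the interval of tre-3 ran from 0.01 to 0.36 (unadjusted p = 0.0414, limma adjusted p = 0.705). In that block fit 872 of the 12540 genes had an unadjusted limma p under 0.05. With the block, limma adjusted p-values of the members lay between 0.705 and 0.976.

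Pathways that feed or drain trehalose were read from lists chosen with earlier results of these data known. Their counts in glp-1 Luc against TU3401 worms stand beside 41.5% of all genes called higher and 46.1% lower, and differences between lists were not tested. Quantile scaling moved the counts of 4 of these lists, and over all 13563 genes it called 6730 higher and 5488 lower, against 5626 and 6253 without it. Among 7 tested genes of gluconeogenesis and the glyoxylate cycle, 6 were higher and 1 was lower, with a median log2 fold change of 1.43. The phosphoenolpyruvate carboxykinase gene pck-1 averaged 723.2 ± 78.7 RPKM in glp-1 Luc worms and 74.01 ± 14.6 RPKM in TU3401 worms, and its relative pck-2 1538 ± 253.8 and 413.2 ± 47.2 RPKM. The glyoxylate cycle gene icl-1 averaged 756.2 ± 271.3 and 101.3 ± 35.4 RPKM (SD, n = 4 each; largest limma adjusted p of these 3 genes 2.38e-05). The mitochondrial malate dehydrogenase gene mdh-2 fell to 359.97 ± 20.2 RPKM in glp-1 Luc worms, against 473.9 ± 48.4 RPKM in TU3401 worms (limma adjusted p = 0.00216).

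Among 13 glycolysis genes, 11 were higher and 2 lower. The glyceraldehyde-3-phosphate dehydrogenase family split: gpd-2 and gpd-3 had log2 fold changes of 2.44 and 2.35, while gpd-1 averaged 7.05 ± 0.669 RPKM in glp-1 Luc worms and 375.9 ± 22.6 RPKM in TU3401 worms, and gpd-4 averaged 0.814 ± 0.190 and 154.3 ± 9.85 RPKM (SD, n = 4 each). Members of that family are close in sequence, and the counting could divide reads between them. The aldolase gene aldo-1 averaged 247.5 ± 11.4 RPKM in glp-1 Luc worms and 54.97 ± 4.82 RPKM in TU3401 worms (SD, n = 4 each). Of 8 genes of glucose phosphate and UDP-glucose supply, which make the substrates of TPS-1 and TPS-2, 1 was higher, 2 were lower and 5 did not pass, with a median log2 fold change of 0.09. With the replicate block 2 were higher, the added one being the phosphoglucomutase gene pgm-2, listed as Y43F4B.5 (limma adjusted p = 0.0627 without the block and 0.0256 with it), a gene named after its values were seen. Quantile scaling called 6 higher, 2 lower and left 0 uncalled, and median-ratio scaling called 3 higher and 2 lower, so the count of higher genes in this list depends on the scaling. The hexokinase gene hxk-2 was called in all of these fits, at 57.9 ± 3.19 RPKM in glp-1 Luc worms and 47.99 ± 3.25 RPKM in TU3401 worms, while hxk-1 averaged 33.5 ± 4.47 and 182.3 ± 4.32 RPKM and K08E3.5 208.3 ± 7.28 and 330.4 ± 2.91 RPKM.

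Of 11 glycogen genes, 4 were higher, 4 lower and 3 did not pass, which is 36.4% in each direction. With quantile scaling 6 were higher and 3 lower, and with median-ratio scaling 4 were higher and 3 lower, with gsy-1 called in neither. The glycogenin gene gyg-2 averaged 2.58 ± 0.265 RPKM in glp-1 Luc worms and 494.1 ± 12.55 RPKM in TU3401 worms, while its relative gyg-1 averaged 53.2 ± 5.76 and 22.2 ± 3.02 RPKM. The glycogen phosphorylase gene pygl-1 averaged 261.8 ± 15.3 and 518.05 ± 38.5 RPKM, and T04A8.7 34.2 ± 2.66 and 105.4 ± 6.12 RPKM. The acid alpha-glucosidase relatives aagr-1 and aagr-2 averaged 257.7 ± 33.01 and 429.2 ± 51.3 RPKM in glp-1 Luc worms, against 51.7 ± 9.33 and 90.2 ± 11.9 RPKM in TU3401 worms. The glycogen synthase gene gsy-1 averaged 107.5 ± 1.91 RPKM in glp-1 Luc worms and 125.4 ± 6.64 RPKM in TU3401 worms, a log2 fold change of -0.22. Quantile scaling, which moved the median of all genes to 0.42, made it 0.03, but relative to the median it was -0.16 without that scaling and -0.39 with it. All 6 genes of the list for osmotic glycerol were higher, among them the inositol transporter gene hmit-1.1 (3.32), the glycerol-3-phosphate dehydrogenase gene gpdh-1 (2.17) and hmit-1.3 (1.996), all as log2 fold changes.

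Of 8 genes of the list for desiccation and stress, 7 were higher, with the superoxide dismutase gene sod-3 at a log2 fold change of 3.71, the catalase gene ctl-2 at 1.99 and hsp-70 at 1.76. The 1 lower gene was lea-1, which encodes a protein made on drying, at 106.6 ± 19.5 RPKM in glp-1 Luc worms and 193.5 ± 57.7 RPKM in TU3401 worms (limma adjusted p = 0.00628). Of 7 sugar transporter genes, 4 were higher and 2 lower, and with quantile scaling 5 were higher and 0 lower. The SWEET family genes swt-3, swt-1 and swt-6 had log2 fold changes of 2.29, 2.17 and 1.92, and swt-4 and swt-5 of -0.90 and -0.71, which under quantile scaling were -0.18 and -0.28 and did not pass. Relative to the median of all genes, swt-4 was -0.84 without that scaling and -0.59 with it, and swt-5 was -0.65 and -0.69. Of 17 regulators of germline-less longevity and sugar sensing, 8 were higher and 6 lower, which is 47.1% and 35.3%. With quantile scaling 11 were higher and 5 lower. The log2 fold changes of mxl-3, daf-12 and nhr-80 were 2.005, 1.84 and 1.76, and those of mxl-1, hsf-1 and tcer-1 were -2.35, -2.27 and -1.85. Among tissue markers limma called 0 in the knockdown comparisons, and with the block 1, the intestinal esterase gene ges-1, lower under mml-1 RNAi at -0.50 on the log2 scale (limma adjusted p = 0.0466, against 0.375 without the block). In the knockdown comparisons limma called 0 genes in each of these lists, with and without the block, and the largest shift of a list median was that of osmotic glycerol, -0.42 under mml-1 RNAi and -0.43 under mxl-2 RNAi.

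**Figure D5:**
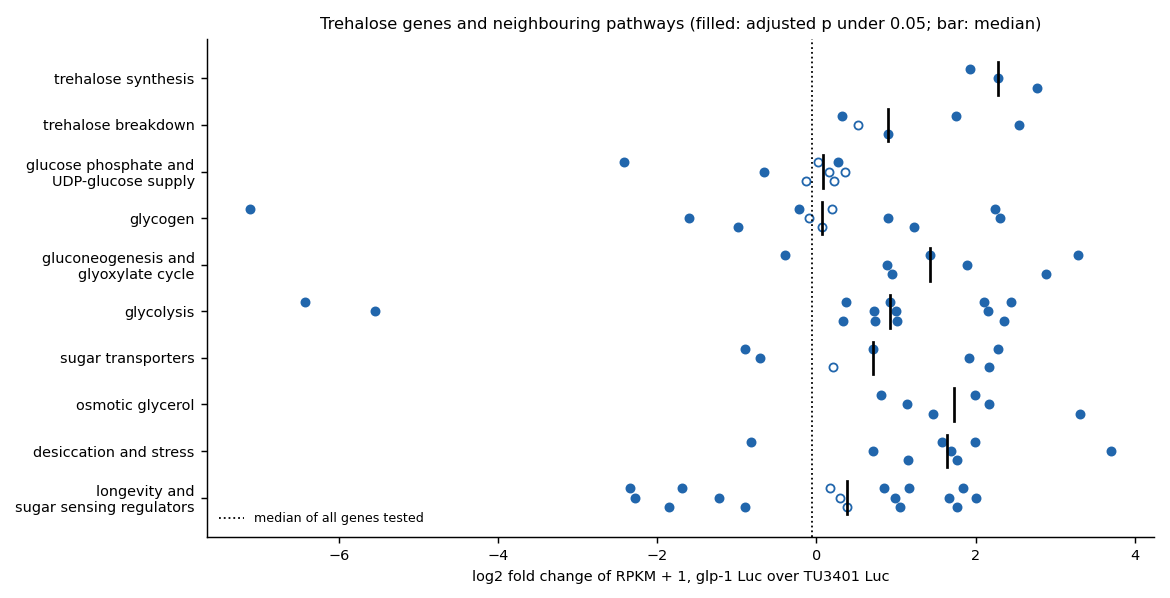
Log2 fold changes of RPKM + 1 in glp-1 Luc over TU3401 worms (horizontal axis) for each tested gene of the trehalose lists and 8 neighbouring lists, filled where the limma adjusted p was under 0.05, with each list's median as a bar and the median of all genes tested as a dotted line at -0.06. The 3 synthesis genes lie at 1.93 to 2.77, while glycogen genes spread from -7.11 (gyg-2) to 2.31 (aagr-1).

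Genes with the most similar profiles were found by Pearson r of log2(RPKM + 1) against the 13424 genes, or 13498 over all libraries, with a mean RPKM of at least 1, as a description. Over the 12 germline-less libraries, tps-2 was most like sir-2.2 (r = 0.98), a mitochondrial sirtuin gene, and F23F12.12 (r = 0.97). The gene sir-2.2 averaged 37.3 ± 6.22 and 38.6 ± 4.89 RPKM under mml-1 and mxl-2 RNAi, against 59.9 ± 6.11 RPKM in glp-1 Luc worms, and F23F12.12 averaged 101.5 ± 42.5 and 88.9 ± 34.7 RPKM, against 586.6 ± 130.2 RPKM (SD, n = 4 each). In both genes every knockdown library lay below every glp-1 Luc library, as in tps-2. Both were picked for likeness to tps-2 over these same libraries, so this adds no separate support. The profile of tps-1 was most like that of glh-1 (0.93), one of the germline markers used here. In glp-1 Luc worms glh-1 averaged 7.66 ± 2.34 RPKM, against 193.2 ± 15.7 RPKM in TU3401 worms (SD, n = 4 each). That genotype difference is opposite to the one of tps-1. The second by r, bath-24, lay at 0 to 0.119 RPKM in these 12 libraries and had passed the filter through TU3401 worms, so its r describes values at the floor. The profile of gob-1 was most like those of metr-1 (0.96) and acs-20 (0.96), and that of tre-1 like those of H06H21.8 (0.87) and F10D7.4 (0.84). For tre-2 the nearest were F59A6.12 (0.94) and C15F1.1 (0.93), for tre-3 aagr-3 (0.95) and K11G9.2 (0.94), and for tre-4 maa-1 (0.93) and C29F9.2 (0.92). The nearest to tre-5 were lgg-1 (0.986), an autophagy gene, and sta-2 (0.97), a STAT gene of the epidermis, and over all 16 libraries the antimicrobial peptide genes nlp-29 (0.94) and nlp-28 (0.94). The level of nlp-29 ranged from 188.9 to 656.8 RPKM under mml-1 RNAi and from 141.2 to 824.9 RPKM under mxl-2 RNAi, against 115.1 to 389.96 RPKM in glp-1 Luc worms.

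Over all 16 libraries the nearest genes of the others follow the genotype difference. They were ceeh-1 and aagr-2 for tps-1 (both 0.99), lact-8 and tag-147 for tps-2 (both 0.99), and Y57E12AR.1 and Y6G8.2 for gob-1 (both 0.99). For the trehalases they were F10D7.4 and H04M03.12 for tre-1 (both 0.94), F59A6.12 (0.96) and F57B1.9 (0.94) for tre-2, Y69H2.9 and K09A9.8 for tre-3 (both 0.99), and maa-1 (0.997) and C52D10.3 (0.993) for tre-4.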

How the data were processed

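RNA of 16 whole-body samples was sequenced. Per the file headers, the authors deposited RPKM per gene and library in 3 tables of paired groups, beside p-values, false discovery rates and log2 fold changes of each gene, which the tables' names credit to edgeR. Columns shared between tables were identical. The submitters' processing notes name bcl2fastq, TopHat2 2.1.1 and GRCh38, a human build. The worm build and the counting tool are not given in the sources used here.

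Members and gene lists were chosen with earlier results of these data known. The named genes are all members, for each list up to 3 called higher and 3 called lower with the largest log2 fold change, and for each member the 2 genes with the most similar profile; gsy-1, pgm-2, act-5 and ges-1 were named after their values were seen. Of 165 list names 157 matched, 5 by the sequence name RefSeq pairs with the symbol. The values on the log2(RPKM + 1) scale were tested with limma 3.58.1 (R 4.3.3) for genes that averaged 1 RPKM or more across the 8 libraries of a comparison (lmFit, eBayes with trend and robust variances, 2-sided), and called genes at a Benjamini-Hochberg adjusted p under 0.05 over all genes. This scale understates folds of low genes. The test was checked on simulated data with independent noise in each library, which does not cover deviations shared by same-numbered libraries.

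Whole reads were recovered for all 25332 genes above 0 (100.0%, tolerance 0.001) from the 21-base piRNA loci and served for depth and for voom as an alternative, which called 1 gene higher and 2 lower under mml-1 RNAi, 3 and 8 under mxl-2 RNAi and 5614 and 6239 in glp-1 Luc worms. PCR reads carry no molecular identifiers, so depth covers counting error only. Same-numbered libraries deviated together in every pair of every comparison (r over genes 0.120 to 0.676), although for replicate 3 of glp-1 Luc against TU3401 a library of another number correlated more (0.240) than the same-numbered one (0.120). By the rule that every pair exceed 0.1 the replicate numbers were treated as pairing the libraries. The main fit leaves them out, and a fit with the replicate number as a block is given where it changes a call. Titles give the numbers, and the labels do not say what they mark. Alternatives were the pseudocount (0.1), no filter, quantile and median-ratio scaling, 1 fit of all libraries, voom and each library left out. No sequence is shown.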

Additional observations from a re-analysis of the deposited data

Results flagged for a closer look

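The level of tre-5 in replicate 1 of the glp-1 mxl-2 RNAi worms was 9.87 RPKM, far from the 1.36 to 2.49 RPKM of the other 3 libraries of its group. Its gap to the nearest library was 0.867 of the group's range, above Dixon's 95% critical value for 4 samples. This was 1 of 32 gene and group combinations examined, and chance flags about 1 in 20. The library had 473 reads of tre-5, so counting error is small beside the gap. Without it the log2 fold change of tre-5 under mxl-2 RNAi was -0.57 (limma adjusted p = 0.664).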

How the results depend on the processing

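The count of 7 members called higher and 0 called lower in glp-1 Luc against TU3401 worms kept to 7 or 8 and to 0 under all 20 alternatives. Replicates left out 1 at a time gave 7 higher each time, and pairs left out with the replicate block 7 to 8. The count called lower under mml-1 RNAi was 0, and 1 (tps-2) with the replicate block, with all 16 libraries in 1 fit and with voom on recovered reads and the replicate block, which was chosen after seeing the data. Leaving out 1 library, or 1 pair with the block (also chosen after seeing the data), gave 0 to 1. Under mxl-2 RNAi it was 0, and 1 with all 16 libraries in 1 fit and with voom and the block, where the adjusted p of tps-2 was 0.0107, 0 with each library left out and 0 to 1 with pairs left out. For tps-2 under mml-1 RNAi voom with the block gave an adjusted p of 0.00326. Over all genes, limma called 0 higher and 2 lower under mml-1 RNAi, 14 and 46 with the block, 8 and 31 in 1 fit of all libraries and 154 and 313 with voom and the block; under mxl-2 RNAi it called 2 and 11, 8 and 16, 6 and 19, and 116 and 149 in the same order, and 0 and 2 with no filter. The cause of these changes was not tested. The replicate block changed no other call of a member.

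Of the differences of single members, none that passed a threshold changed sign. Under mxl-2 RNAi that of tps-1 was 0.018 with quantile scaling, and that of tre-3 was -0.0013 with median-ratio scaling. With libraries or pairs left out the log2 fold changes under mxl-2 RNAi ranged from -0.11 to 0.036 (tps-1), -0.093 to 0.0057 (tre-1), -0.080 to 0.10 (tre-2), -0.082 to 0.11 (tre-3) and -0.57 to 0.31 (tre-5). In mxl-2 RNAi against mml-1 RNAi they ranged from -0.064 to 0.15 (tps-2), -0.097 to 0.058 (gob-1) and -0.065 to 0.14 (tre-4). At 53 to 600 reads a library, tre-5 carries the largest relative spread of the members, and its intervals without the block include 0 in all 4 comparisons.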
